A study of Mus musculus with 44 samples.

Results

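The immediate early response genes are 10 genes chosen by name: Fos, Fosb, Jun, Junb, Egr1, Egr2, Egr3, Atf3, Ier2 and Ier3. Each was found under 1 Ensembl mouse gene ID among the 29720 genes of the deposited count tables. The tables come from bulk RNA-seq of C57BL/6 intestine in a pair of mouse models of inflammatory bowel disease, each with inflamed and non-inflamed animals given an inhibitor of the kinase MK2 or vehicle. In the T cell transfer model every animal was Rag1 null, a genotype without T or B cells of its own. Inflamed transfer mice had received 400000 naive T cells and developed colitis within 8 to 12 weeks, while non-inflamed transfer mice had received 200000 bulk T cells, so the groups differ in both the kind and the number of cells given. In the TNF∆ARE model the inflamed mice were Tnf ∆ARE/+, heterozygous for an allele without the AU-rich element that limits Tnf mRNA. The non-inflamed mice were Tnf +/+ littermates. The TNF mice were 16 weeks old when assigned to treatment, and no age was given for the transfer mice. The inhibitor was ATI-450 at 3 mg/kg and the vehicle was methylcellulose with Tween20 in PBS. Each was dosed once more 16 h later, and tissue was taken 90 min after the second dose. There were 6 inhibitor and 6 vehicle libraries from inflamed transfer mice, 6 inhibitor and 5 vehicle libraries from non-inflamed transfer mice, 6 inhibitor and 5 vehicle libraries from inflamed TNF mice, and 5 inhibitor and 5 vehicle libraries from non-inflamed TNF mice.

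Immediate early genes are switched on within minutes of a stimulus without new protein synthesis, by factors such as SRF with its ternary complex partners and CREB that MAP kinase cascades activate, and their mRNAs decay fast. Fos and Jun proteins pair to form AP-1, Egr proteins are zinc finger transcription factors, and AU-rich elements in many of these mRNAs are bound by decay factors such as tristetraprolin. MK2, which acts below the p38 MAP kinases, phosphorylates tristetraprolin and so stabilises such mRNAs, and it also reaches SRF and CREB.

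Sequences are shown for Egr2 and Ier3, the members that rose in every inflammation comparison, with Fos as the best known member of the family. The first set is the 250 bases upstream of a RefSeq transcript start, from RefSeq on GRCm38.p6, all on the plus strand. Capitals mark a CArG box, the site of SRF, in Egr2 and a match to the NF-kappaB consensus in Ier3 and Fos.
Egr2, chr10:67537619-67537868: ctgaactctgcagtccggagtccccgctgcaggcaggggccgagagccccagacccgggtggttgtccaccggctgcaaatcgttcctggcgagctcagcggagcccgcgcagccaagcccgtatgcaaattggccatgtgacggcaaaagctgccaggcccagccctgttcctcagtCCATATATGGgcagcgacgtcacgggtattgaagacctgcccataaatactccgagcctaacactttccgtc
Ier3, chr17:35821463-35821712: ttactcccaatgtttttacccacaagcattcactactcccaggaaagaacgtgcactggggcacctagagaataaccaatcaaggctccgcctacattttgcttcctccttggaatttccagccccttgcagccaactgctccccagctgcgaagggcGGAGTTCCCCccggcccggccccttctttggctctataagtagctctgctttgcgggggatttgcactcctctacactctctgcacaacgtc
Fos, chr12:85473640-85473889: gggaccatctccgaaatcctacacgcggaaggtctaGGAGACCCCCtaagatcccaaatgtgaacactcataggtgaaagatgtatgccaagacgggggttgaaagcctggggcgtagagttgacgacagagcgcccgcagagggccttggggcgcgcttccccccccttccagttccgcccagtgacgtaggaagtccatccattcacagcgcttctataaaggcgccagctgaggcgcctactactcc
Promoter windows were at hand for 7 of the 10 members and 11 starts in all (Egr1, Egr3 and Ier2 had none), and each window was searched on both strands to 50 bases past the start. A CArG box was found in 4 of the 5 Egr2 windows and in no other member's window; 3 of these 4 windows overlap and share 1 box, so they hold 2 different boxes. It was found in 1.63% of all 32851 windows. The NF-kappaB consensus was found in windows of Fos, Fosb, Egr2 and Ier3, against 8.46% of all windows. Neither the full cAMP response element TGACGTCA (1.79% of all windows) nor the AP-1 site TGACTCA (5.20%) was found in any member's window. Each motif was searched by its letters or, for the degenerate CArG and NF-kappaB patterns, by their usual consensus. These are matches of letters in a fixed window and say nothing about which factor was bound. Sites farther upstream, and those of members without a window, were not searched, so a missing match does not show that a gene lacks the site.

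The second set is a stretch of at most 30 bases from the 3′ untranslated region, read from the GENCODE M21 transcripts, with the pentamer ATTTA of AU-rich elements in capitals.
Fos: tgtgttttcaATTTATTTAttaagatggat
Ier3: taattaatATTTAtgtATTTAtgtatatcc
Egr2: cagtgtatatccATTTAgattttgtgtatt
Junb: atatatttgtgtATTTAacagggaggggag
Counted over the transcript of each gene with the longest 3′ untranslated region, ATTTA occurred 5 times in Ier3, 4 times in Fos and in Jun, 3 times in Egr2 and in Atf3, 2 times in Egr1 and in Junb, 7 times in Egr3, 1 time in Fosb and 0 times in Ier2. At least 1 copy was present in 9 of the 10 members, against 65.2% of 21027 genes with a 3′ untranslated region. The longer element TTATTTATT was present in Fos alone among the members, against 7.66% of genes.

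Library totals ran between 5953607 and 22347011 counts in transfer mice (median 17685934) and between 5800923 and 13113931 counts in TNF mice (median 10490701). The labels name distal colon and ileum as the tissues without tying them to a model. The summed level of 10 small intestinal enterocyte markers was between 126 and 614 CPM (counts scaled to the library total) in 22 of the 23 transfer libraries and at or above 8654 CPM in every TNF library. Replicate 3 of the inflamed vehicle transfer group stood apart with 42186 CPM, and 4 inflamed transfer libraries (inhibitor replicates 3, 5 and 6 and vehicle replicate 1) had between 2012 and 30725 CPM of pancreatic acinar markers, so the inflammation results of transfer mice are also given without them. Libraries carry batch labels 1 to 4 that are uneven over the groups, and the fits therefore had a batch term: in inflamed transfer mice 2 inhibitor libraries were of batch 1, 3 of batch 3 and 1 of batch 4, while 1 vehicle library was of batch 3 and 5 of batch 4. In inflamed TNF mice 5 of 6 inhibitor libraries were of batch 3 and 4 of 5 vehicle libraries of batch 2, and every non-inflamed TNF library was of batch 2. The labels do not state that each library is a separate animal, and p-values measure the spread between libraries.

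The plot of the members by library shows 8 members that were measured in every library. Levels below are CPM scaled with edgeR's TMM factors over all 44 libraries, fold changes are log2 ratios fitted with a batch term ± SE, and adjusted p-values come from edgeR's quasi-likelihood test with p-values adjusted by Benjamini-Hochberg over every gene tested (15317 in transfer mice and 14370 in TNF mice). A gene is said to have risen or fallen where its adjusted p was under 0.05. Because these are bulk samples, a lower level can stand for fewer cells of a type or for less RNA per cell, and these cannot be told apart.

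**Figure D1:**
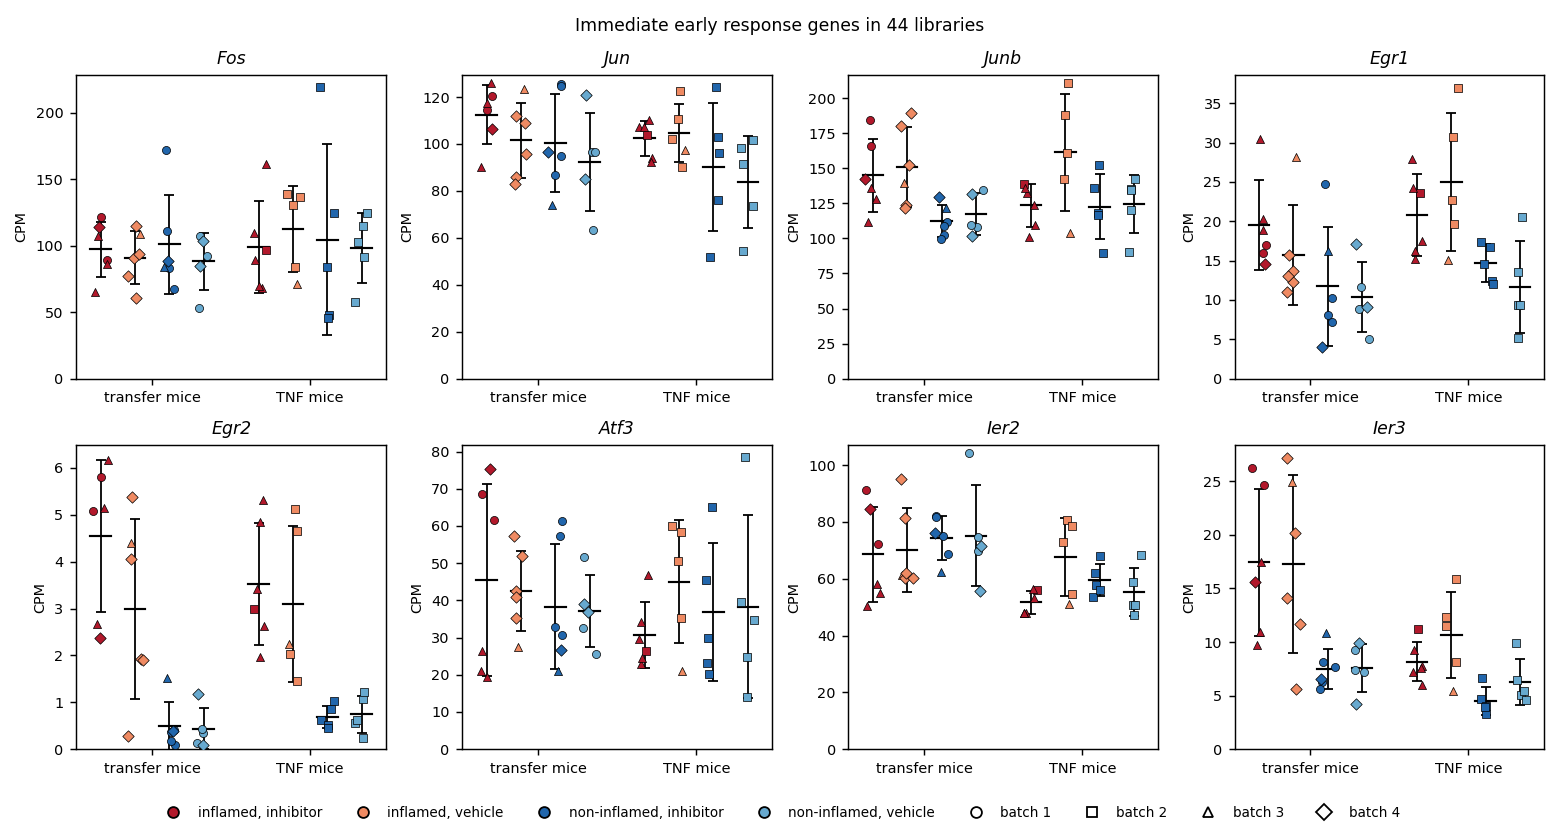
CPM of 8 members in each of 44 libraries, by model, inflammation and treatment; points are libraries with their batch as symbol, the horizontal bar is the group mean and the error bar is 1 SD. Egr2 is at or above 1.46 CPM in every inflamed TNF library and at or below 1.22 CPM in every non-inflamed TNF library, while Fos, Jun, Atf3 and Ier2 overlap between all groups of a model.

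Set per kilobase of exon so that genes can be compared, Junb was the most abundant member in 7 of the 8 groups. In inflamed vehicle TNF mice it averaged 70.1 ± 18.0 CPM per kb (SD, n = 5), followed by Fos at 47.8 ± 13.7, Ier2 at 44.4 ± 9.02, Jun at 32.8 ± 3.89, Atf3 at 20.9 ± 7.68, Ier3 at 9.41 ± 3.54, Egr1 at 5.58 ± 1.96 and Egr2 at 0.913 ± 0.491 CPM per kb. In that order the mean ± SD ranges of Junb and Fos, of Fos and Ier2, and of Ier2 and Jun overlapped, and so did those of Ier3 and Egr1, while those of Jun and Atf3, of Atf3 and Ier3, and of Egr1 and Egr2 did not. The same 4 genes (Junb, Ier2, Fos and Jun) led in every group, non-inflamed groups included.

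Fos, the founding AP-1 subunit, did not separate inflamed from non-inflamed mice in either model. It ran between 60.8 and 115 CPM (median 92.1) in inflamed vehicle transfer mice, against 53.3, 85.1, 92.3, 104 and 107 CPM in non-inflamed vehicle transfer mice. In TNF mice it had 71.0, 84.3, 131, 137 and 139 CPM in inflamed vehicle libraries, against 57.3, 91.5, 103, 115 and 125 CPM in non-inflamed vehicle libraries. The groups overlap in both models, with fitted log2 fold changes of 0.12 ± 0.26 (95% interval -0.43 to 0.66; adjusted p = 0.796) and 0.25 ± 0.37 (95% interval -0.52 to 1.02; adjusted p = 0.758). Fos varied within groups too: the 5 non-inflamed inhibitor TNF libraries had 45.5, 48.1, 84.3, 125 and 219 CPM.

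Fosb, a second Fos family subunit, was listed at exactly 0 counts in 18 of the 44 libraries and at up to 113 counts in others. Epcam, a pan-epithelial surface gene, was also listed at 0 CPM in the median library of each model. Whether such zeros are failed estimates of transcript quantification was not tested. Fosb reached at most 5.98 CPM. It passed in no comparison, and no fold is given for it, apart from its place as a median of the members below.

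Jun, the AP-1 partner that also pairs with itself, passed in no comparison. Its group means lay between 83.9 ± 19.7 CPM in non-inflamed vehicle TNF mice and 112 ± 12.6 CPM in inflamed inhibitor transfer mice. On vehicle its inflamed over non-inflamed log2 fold change was 0.18 ± 0.18 (adjusted p = 0.533) in transfer mice and 0.34 ± 0.19 (adjusted p = 0.286) in TNF mice.

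Junb, a Jun family member that is a weaker activator than Jun in most settings, rose in inflamed transfer mice on inhibitor and passed in no other inflammation comparison. In transfer mice it ran between 122 and 189 CPM (median 146) in inflamed vehicle libraries, against 101, 108, 109, 132 and 134 CPM in non-inflamed vehicle libraries. In inhibitor libraries it ran between 112 and 185 CPM (median 139) in inflamed transfer mice, against 99.8 to 129 CPM (median 110) in non-inflamed transfer mice. The groups overlap in both pairs. The rise on inhibitor was 0.44 ± 0.14 (adjusted p = 0.0338), and the value on vehicle was 0.40 ± 0.16 (adjusted p = 0.104). The inhibitor call rests on single libraries: it was lost when any of 7 of the 12 libraries was left out (inflamed replicates 1, 2 or 6, or non-inflamed replicates 1, 2, 3 or 4), where the log2 fold change was 0.32 to 0.45 and adjusted p was between 0.0532 and 0.159. Without the small intestinal and pancreatic libraries it was 0.49 (adjusted p = 0.0572), and within batch 1 alone it was 0.73 (adjusted p = 0.0112). In TNF mice Junb had 104, 142, 161, 188 and 211 CPM in inflamed vehicle libraries, against 90.6, 120, 134, 136 and 142 CPM in non-inflamed vehicle libraries, a difference of 0.45 ± 0.16 (adjusted p = 0.063). The lowest inflamed value, 104 CPM, was that of replicate 5, the single inflamed vehicle TNF library of batch 3. Without it the fold change was 0.50 with an adjusted p of 0.0432, and without non-inflamed replicate 4 it was 0.50 with an adjusted p of 0.0469.

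Egr1, an inducible Egr factor and a direct target of SRF and Elk factors, rose in inflamed TNF mice on vehicle. It had 15.1, 19.7, 22.7, 30.7 and 37.0 CPM in inflamed libraries, against 5.20, 9.32, 9.35, 13.6 and 20.6 CPM in non-inflamed libraries. These groups overlap by 1 non-inflamed library, replicate 2, that lies above the lowest pair of inflamed libraries. The log2 fold change was 1.19 ± 0.29 (adjusted p = 0.00775), and within batch 2 alone, where 4 of the 5 inflamed libraries lie, it was 1.25 (adjusted p = 0.0672). On inhibitor it ran between 15.2 and 27.9 CPM (median 20.6) in inflamed TNF mice, against 12.1, 12.4, 14.6, 16.8 and 17.3 CPM in non-inflamed TNF mice, with a log2 fold change of 0.98 ± 0.41 (adjusted p = 0.142). In transfer mice Egr1 ran between 11.0 and 28.2 CPM (median 13.4) in inflamed vehicle libraries, against 5.09, 8.85, 9.10, 11.6 and 17.1 CPM in non-inflamed vehicle libraries. Its log2 fold change there was 0.50 ± 0.37 (adjusted p = 0.379), while it was 0.0061 within batch 4 alone (adjusted p = 0.995) and -0.0096 with only the pair of groups in the fit (adjusted p = 0.992). The 28.2 CPM library was replicate 1, which also held the most pancreatic acinar marker RNA and was the only inflamed vehicle transfer library of batch 3. The difference between the models' Egr1 fold changes on vehicle, transfer minus TNF, was -0.70 ± 0.48 (adjusted p = 0.481), so the models were not shown to differ.

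Egr2, an Egr factor with roles in myeloid cells, in the restraint of activated T cells and in nerve myelination, was the member with the largest difference in every inflammation comparison. In inflamed TNF mice on vehicle it had 1.46, 2.03, 2.24, 4.66 and 5.13 CPM, against 0.233, 0.556, 0.630, 1.06 and 1.22 CPM in non-inflamed mice on vehicle. In inflamed TNF mice on inhibitor it ran between 1.97 and 5.32 CPM (median 3.20), against 0.458, 0.513, 0.616, 0.856 and 1.02 CPM in non-inflamed mice on inhibitor. Neither pair of groups overlaps. The log2 fold changes were 2.06 ± 0.44 on vehicle (adjusted p = 0.00308) and 2.47 ± 0.60 on inhibitor (adjusted p = 0.00995). Within batch 2 alone the vehicle value was 2.14 (adjusted p = 0.0328). The inhibitor call depended on inflamed replicate 1, the only inflamed inhibitor library of batch 2: without it the log2 fold change was 2.96 and adjusted p was 0.12. Batch 2 held 1 inflamed and 5 non-inflamed inhibitor TNF libraries and no other batch held both groups, so no within-batch fit could be had on inhibitor.

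In transfer mice on inhibitor Egr2 ran between 2.37 and 6.18 CPM (median 5.11) in inflamed libraries, against 0.0994 to 1.51 CPM (median 0.378) in non-inflamed libraries. These groups do not overlap, and the log2 fold change was 3.25 ± 0.66 (adjusted p = 0.00191). It passed in all 12 fits that left out 1 library and in all 11 other alternatives, and within batch 1 alone it was 4.36 (adjusted p = 0.00165). On vehicle Egr2 ran between 0.286 and 5.38 CPM (median 3.00) in inflamed transfer mice, against 0.0943, 0.121, 0.355, 0.427 and 1.18 CPM in non-inflamed transfer mice. The lowest inflamed value was that of replicate 3, the library with small intestinal markers, and the other 5 inflamed libraries were all above 1.90 CPM. The log2 fold change was 2.49 ± 0.74 (adjusted p = 0.0323), and it was between 2.11 and 3.78 when 1 library at a time was left out, the highest without non-inflamed replicate 7. In 6 of these 11 fits (without inflamed replicates 1, 4 or 6, or non-inflamed replicates 1, 2 or 6) the adjusted p was between 0.0583 and 0.137. Without the small intestinal and the 4 pancreatic libraries it was 2.55 (adjusted p = 0.0695), without the pancreatic libraries alone it was 2.26 (adjusted p = 0.164), and within batch 4 alone it was 2.07 (adjusted p = 0.607). Of the 44 libraries 18 held under 10 counts of Egr2, 17 of them non-inflamed, so the non-inflamed levels are imprecise. Over the 8 groups the 4 inflamed means lay between 2.99 and 4.54 CPM and the 4 non-inflamed means between 0.435 and 0.740 CPM; neighbouring groups in that order overlapped within 1 SD.

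**Figure D2:**
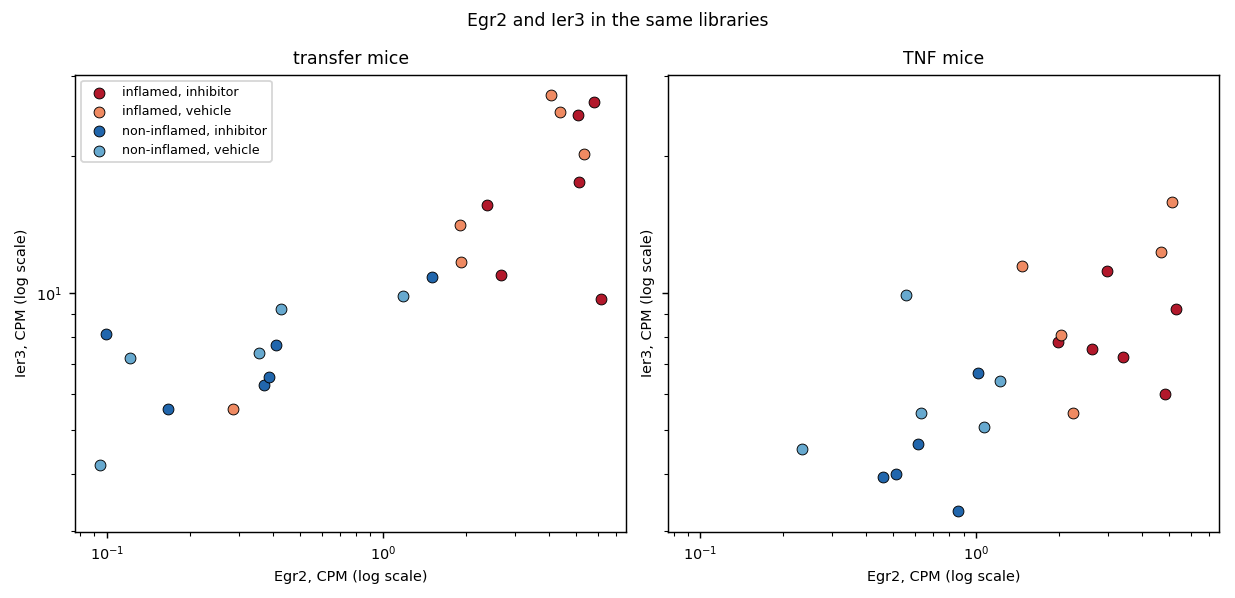
Egr2 against Ier3 in CPM on log axes, a point per library, with transfer mice (23 libraries) on the left and TNF mice (21 libraries) on the right. Inflamed transfer libraries sit at the upper right, apart from 1 inflamed vehicle library at 0.286 CPM of Egr2 and 5.58 CPM of Ier3 that holds small intestinal markers.

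Egr3, the third Egr factor, was near the limit of detection: 30 of 44 libraries were at 0 counts and none had more than 9 counts or 0.571 CPM. It was below the count filter in both models and was not tested. In non-inflamed transfer mice all 11 libraries were at 0.

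Atf3, a stress-induced bZIP factor that can repress as well as activate, did not pass in any inflammation comparison. On vehicle it ran between 27.4 and 57.2 CPM (median 41.8) in inflamed transfer mice, against 25.5, 32.5, 36.9, 39.1 and 51.6 CPM in non-inflamed transfer mice, with a log2 fold change of 0.48 ± 0.27 (adjusted p = 0.238). In TNF mice it had 21.1, 35.3, 50.5, 58.3 and 59.9 CPM in inflamed vehicle libraries, against 13.9, 24.7, 34.7, 39.5 and 78.5 CPM in non-inflamed vehicle libraries. Both pairs overlap over most of their range. In inflamed inhibitor transfer mice Atf3 split by batch, with 19.4, 20.9 and 26.4 CPM in the 3 libraries of batch 3 and 61.6, 68.6 and 75.3 CPM in the other 3.

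Ier2, a small nuclear early response protein, was at 51.0, 54.7, 72.9, 78.5 and 80.5 CPM in inflamed vehicle TNF mice, against 47.2, 50.8, 50.9, 59.0 and 68.4 CPM in non-inflamed vehicle TNF mice. The groups overlap, and the log2 fold change was 0.35 ± 0.12 (adjusted p = 0.0694). It was 0.42 without inflamed replicate 1 (adjusted p = 0.0213) and 0.45 without non-inflamed replicate 4 (adjusted p = 0.0147). In transfer mice the value on vehicle was 0.07 ± 0.17 (adjusted p = 0.811).

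Without the small intestinal and pancreatic libraries none of the members described so far passed in transfer mice, apart from Egr2 on inhibitor. On vehicle the log2 fold change was then -0.12 for Fos, 0.05 for Jun, 0.29 for Junb, 0.45 for Egr1, 0.36 for Atf3 and 0.16 for Ier2, with adjusted p between 0.333 and 0.879. The sign of Fos differs from that over all libraries, and both values are smaller than their SE.

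Ier3, a stress-inducible gene also known as IEX-1 that affects cell survival and is a target of NF-kappaB, was higher in inflamed mice in all 4 comparisons. On vehicle it ran between 5.58 and 27.2 CPM (median 17.2) in inflamed transfer mice, against 4.20, 7.21, 7.39, 9.22 and 9.87 CPM in non-inflamed transfer mice. All inflamed libraries but replicate 3, the one with small intestinal markers, were above every non-inflamed library. The log2 fold change was 1.37 ± 0.39 (adjusted p = 0.0257), and without inflamed replicate 1, inflamed replicate 6 or non-inflamed replicate 6 it was 1.21, 1.16 and 1.17 with adjusted p of 0.0811, 0.0568 and 0.132. Without the small intestinal and pancreatic libraries it was 1.41 (adjusted p = 0.0421), without the pancreatic libraries alone it was 1.19 (adjusted p = 0.141), and within batch 4 alone it was 1.16 (adjusted p = 0.607). On inhibitor Ier3 ran between 9.73 and 26.3 CPM (median 16.6) in inflamed transfer mice, against 5.58 to 10.8 CPM (median 7.11) in non-inflamed transfer mice, with a log2 fold change of 1.27 ± 0.33 (adjusted p = 0.0106). Within batch 1 alone it was 1.88 (adjusted p = 0.00139), and it was 1.10 without inflamed replicate 2 (adjusted p = 0.054).

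In TNF mice Ier3 had 5.45, 8.10, 11.5, 12.3 and 15.8 CPM in inflamed vehicle libraries, against 4.54, 5.09, 5.46, 6.41 and 9.90 CPM in non-inflamed vehicle libraries. The log2 fold change was 0.88 ± 0.24 (adjusted p = 0.0167). It was 0.93 within batch 2 alone (adjusted p = 0.0782) and 0.72 without inflamed replicate 2 (adjusted p = 0.0715). On inhibitor Ier3 ran between 6.01 and 11.2 CPM (median 7.67) in inflamed TNF mice, against 3.33, 3.94, 4.00, 4.66 and 6.67 CPM in non-inflamed TNF mice. That log2 fold change was 1.56 ± 0.34 (adjusted p = 0.00426), and 1.89 without inflamed replicate 1 (adjusted p = 0.0696). Without the batch term it was 0.89 (adjusted p = 0.0149), and batch is nearly confounded with inflammation in this comparison. In each pair the groups overlap. On vehicle the lowest inflamed value, 5.45 CPM, lay below the non-inflamed values of 5.46, 6.41 and 9.90 CPM. On inhibitor the lowest inflamed value, 6.01 CPM, lay below the highest non-inflamed value, 6.67 CPM.

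Counted over the members, 9 were tested in each comparison and none fell. On vehicle 2 of 9 rose in transfer mice, where 6.95% of all genes rose and 5.34% fell, and 3 of 9 rose in TNF mice, where 8.07% rose and 6.94% fell. On inhibitor 3 of 9 rose in transfer mice, where 12.9% of all genes rose and 9.71% fell, and 2 of 9 rose in TNF mice, where 7.23% rose and 4.37% fell. The median log2 fold change of the 9 was 0.40, 0.35, 0.50 and 0.44 in the same order of comparisons, against 0.05, -0.02, 0.02 and -0.01 over all genes tested. The 0.50 is the value of Fosb, with an SE of 1.13 and many libraries at 0 counts. The 0.44 is the value of Junb in TNF mice on inhibitor, where batch is nearly confounded with inflammation. Its means there were 124 CPM in inflamed and 123 CPM in non-inflamed mice, and alternatives gave 0.048 to 0.47. Groups that do not overlap were seen for Egr2 in 3 of the 4 comparisons: in TNF mice on vehicle, where 5.94% of genes were higher and apart, in transfer mice on inhibitor, where 7.21% were, and in TNF mice on inhibitor, where 11.8% were. No member was apart in transfer mice on vehicle, where 3.49% of genes were. The transfer vehicle count fell to 0 without inflamed replicate 1 or 6, without non-inflamed replicate 6, and without the 4 pancreatic libraries, and the count in TNF mice on inhibitor fell to 0 without inflamed replicate 1. The members' inflammation effects on vehicle were tested between the models in 1 fit. No member passed, where 4.46% of 15565 genes did, and 2805 genes had an unadjusted p under 0.05 by edgeR. DESeq2 and limma-voom likewise called no member. The lack of a call does not show that the effects were the same. Model and intestinal region cannot be told apart in this fit.

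**Figure D3:**
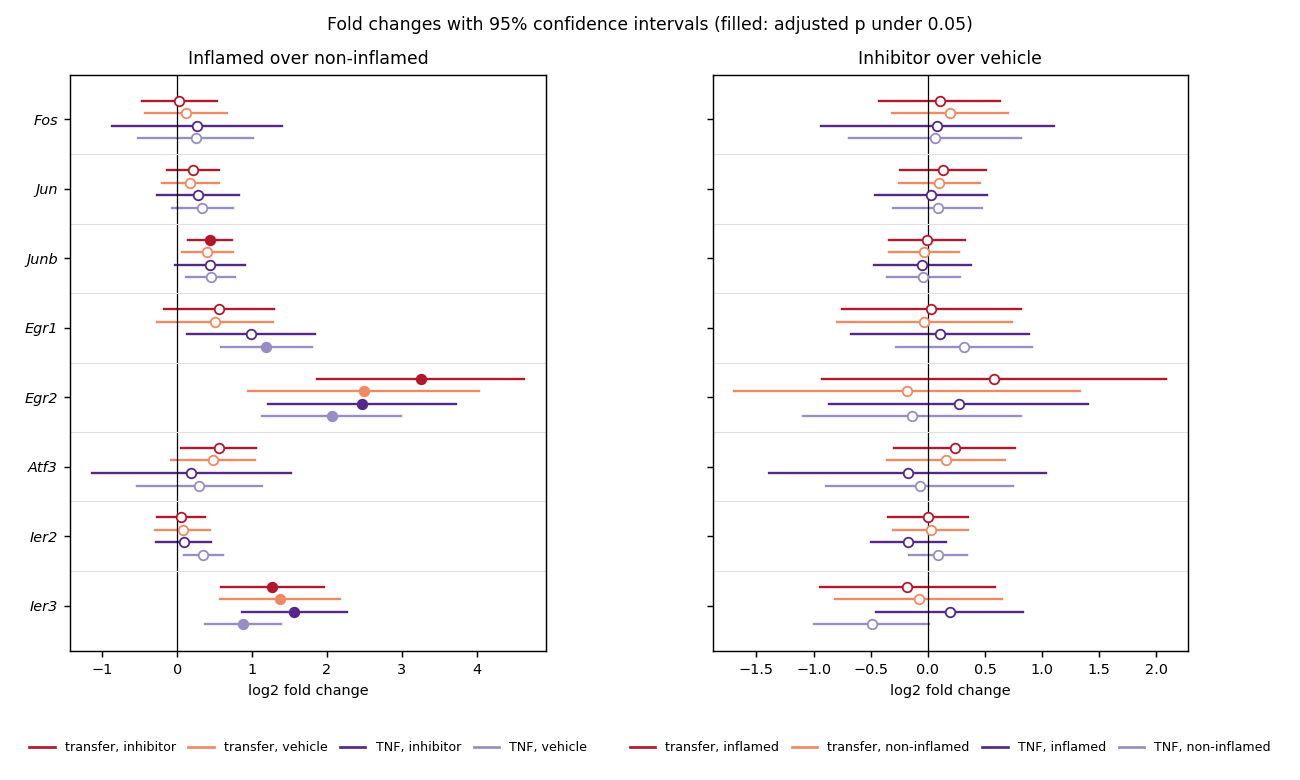
Fitted log2 fold changes of 8 members with 95% confidence intervals; inflamed over non-inflamed mice on the left and inhibitor over vehicle on the right, filled points where the adjusted p was under 0.05. Egr2 and Ier3 are filled in all 4 inflammation comparisons, and no point is filled for the inhibitor.

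The inhibitor comparisons ask whether blocking MK2 changed these genes 90 min after the second dose, and no member passed in any of them. The share of all genes that passed was 0.00653% (1 gene) in inflamed transfer mice and 0% in inflamed TNF mice and in both non-inflamed groups; 467, 191, 183 and 373 genes had an unadjusted p under 0.05 in inflamed transfer, inflamed TNF, non-inflamed transfer and non-inflamed TNF mice. DESeq2 called 5, 3, 10 and 18 genes in the same order, none of them a member. Egr2 had 2.37 to 6.18 CPM (median 5.11) on inhibitor, against 0.286 to 5.38 CPM (median 3.00) on vehicle in inflamed transfer mice, a log2 fold change of 0.58 with a 95% interval of -0.92 to 2.09. In inflamed TNF mice its log2 fold change was 0.27 with an interval of -0.87 to 1.40. Ier3 changed by -0.18 (interval -0.94 to 0.58) in inflamed transfer mice and by 0.19 (interval -0.45 to 0.83) in inflamed TNF mice. The intervals of Egr2 are wide, so the lack of a call does not show that its level was the same.

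Among the better measured members the intervals were narrower. Junb was at -0.0042 (interval -0.34 to 0.33) and Jun at 0.13 (interval -0.24 to 0.51) in inflamed transfer mice, and Fos was at 0.10 (interval -0.43 to 0.63). In inflamed TNF mice the mean level of Junb was 124 ± 15.3 CPM on inhibitor and 161 ± 41.4 CPM on vehicle, and that of Ier2 was 51.6 ± 4.20 CPM on inhibitor and 67.6 ± 13.7 CPM on vehicle. Batch moves with these means: in batch 3 Junb averaged 121 CPM over 5 inhibitor libraries and was 104 CPM in the 1 vehicle library, and in batch 2 it was 139 CPM in the 1 inhibitor library and averaged 176 CPM over 4 vehicle libraries. With the batch term the log2 fold changes were -0.05 ± 0.20 for Junb and -0.17 ± 0.16 for Ier2. The difference between the inhibitor effect in inflamed and in non-inflamed mice was largest in size for Egr2 in transfer mice at 0.76 ± 0.94 and for Ier3 in TNF mice at 0.68 ± 0.39, Fosb aside, and no member's difference passed (no gene of the tables did by edgeR, with 299 and 230 genes at an unadjusted p under 0.05 in transfer and TNF mice, while DESeq2 called 10 and 5).

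The members did not vary as 1 block. Across the 23 transfer libraries, with the group means removed, the 36 pairs of the 9 tested members had a median Pearson's r of 0.09 (from -0.34 to 0.74), and across the 21 TNF libraries the median was 0.24 (from -0.35 to 0.77). Egr2 and Ier3 were the closest pair in transfer mice, at r = 0.74, and Fos and Jun the closest in TNF mice, at r = 0.77. The first value was 0.78 over the 18 libraries left without the small intestinal and pancreatic ones, and 0.82 with batch removed from all 23. Without the small intestinal library alone it was lower, at 0.61 over 22 libraries. Egr2 and Ier3 had r = 0.32 in TNF mice, and Fos and Jun had r = 0.04 in transfer mice. These are descriptions of libraries that share depth and tissue makeup, and they carry no test.

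**Figure D4:**
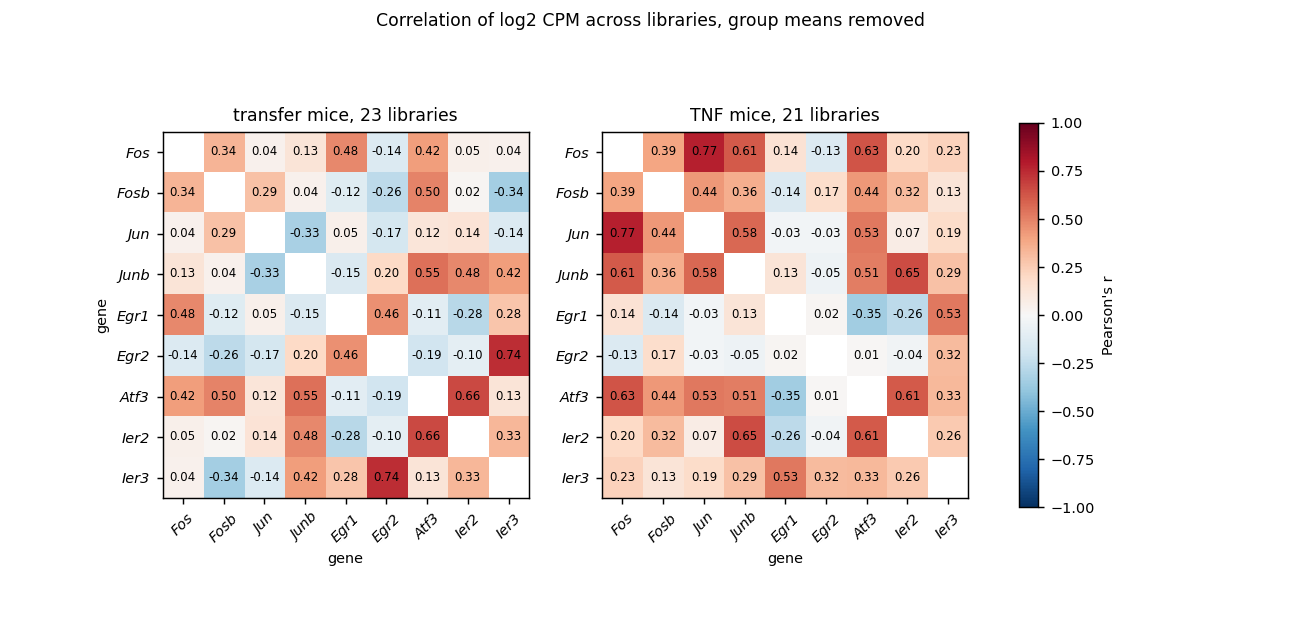
Pearson's r between 9 members over the libraries of each model, computed on log2 CPM with the mean of each group removed. In TNF mice Fos, Jun, Junb and Atf3 form a block of 0.51 to 0.77, and in transfer mice the highest value is 0.74 for Egr2 with Ier3.

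Marker genes of other cells moved with these differences. Of all genes on vehicle, 6.95% rose and 5.34% fell in transfer mice, and 8.07% rose and 6.94% fell in TNF mice. Of 10 macrophage markers 7 rose in inflamed transfer mice and 9 in inflamed TNF mice on vehicle; their summed level ran between 198 and 910 CPM in inflamed transfer mice, against 95.5 to 228 CPM in non-inflamed transfer mice, and between 695 and 1015 CPM in inflamed TNF mice, against 142 to 283 CPM in non-inflamed TNF mice. Of 8 T cell markers 5 rose in transfer mice and 0 in TNF mice on vehicle. Neutrophil markers rose in 6 of 10 tested in transfer mice and in 5 of 6 tested in TNF mice. On vehicle their sum was 26.9 to 2230 CPM in inflamed and 81.1 to 706 CPM in non-inflamed transfer mice. In TNF mice it was 81.4 to 277 CPM and 3.12 to 4.76 CPM. Ly6g had the highest median of these markers in transfer mice, 156 CPM, and a median of 0.183 CPM in TNF mice. The neutrophil sum is thus made up differently in each model and is not a like measure between them. Markers of other tissue cells moved too: in transfer mice 5 of 9 smooth muscle, 3 of 8 colonocyte and 3 of 10 enteric neuron and glia markers fell and 4 of 7 tested small intestinal enterocyte markers rose, and in TNF mice 8 of 10 small intestinal enterocyte markers fell and 3 of 7 fibroblast markers rose. None of these markers was at 0 in every library. The small intestinal enterocyte sum had a median of 218 CPM in inflamed vehicle transfer mice, against 299 CPM in non-inflamed vehicle transfer mice. Its maximum of 42186 CPM was that of inflamed replicate 3, and the count of rising enterocyte markers is not given without that library. With group means removed, Egr2 had r = 0.88 with the macrophage sum in transfer mice (0.84 over the 18 libraries without those that stood apart) and 0.65 in TNF mice. Its r with the neutrophil sum was 0.61 in transfer mice (0.25 over those 18 libraries) and 0.73 in TNF mice. With the T cell sum it was 0.69 in transfer mice (0.69 over those 18) and 0.48 in TNF mice. With the sum of 6 epithelial markers it was -0.42 in transfer mice (0.68 over those 18) and -0.21 in TNF mice. Ier3 had r = 0.62 and 0.28 with the macrophage sum and 0.76 and 0.46 with the neutrophil sum, in transfer and TNF mice. Over those 18 transfer libraries Ier3 had 0.61 with the macrophage sum and 0.54 with the neutrophil sum. In TNF mice Atf3, Junb, Ier2, Fos and Jun had r = 0.84, 0.74, 0.73, 0.61 and 0.59 with the sum of 6 epithelial markers. Their r with the macrophage sum was between -0.52 and -0.0037. With the neutrophil sum it was between -0.16 (Fos) and 0.35 (Ier2), so they were not opposite to Egr2 and Ier3 in every sum. Ier3 had r = 0.12 with the epithelial sum in TNF mice. The part of cell makeup in the members' differences was not tested.

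A list of 13 heat shock and tissue handling genes was read beside the members. Its summed level on vehicle ran between 5047 and 9450 CPM in inflamed transfer mice, against 6387 to 7668 CPM in non-inflamed transfer mice, and between 4345 and 6437 CPM in inflamed TNF mice, against 4237 to 9495 CPM in non-inflamed TNF mice. None of the 13 passed on vehicle in transfer mice, and 1 (Dnaja1, a co-chaperone) fell in TNF mice, to 225 CPM in inflamed mice against 353 CPM in non-inflamed mice. The part of handling was not tested.

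The members were also read beside other genes of the same programme. For the counts in this and the next paragraphs, 6.95% of all genes rose and 5.34% fell in transfer mice on vehicle. In TNF mice on vehicle 8.07% rose and 6.94% fell, and on inhibitor 12.9% rose in transfer mice and 7.23% in TNF mice. Where a list's count is near these shares it says nothing particular about the list. Of 16 tested AP-1 target genes 9 rose in transfer mice on vehicle and of 15 tested 11 rose in TNF mice on vehicle, none fell, and the list's median log2 fold changes were 2.63 and 2.32; on inhibitor 13 of 16 and 10 of 15 rose. Mmp3, the matrix metalloprotease stromelysin-1, averaged 32.7 CPM in inflamed transfer mice against 0.619 CPM in non-inflamed transfer mice on vehicle, a log2 fold change of 5.08 ± 0.96 (adjusted p = 0.00464). Mmp9, the gelatinase of neutrophils and macrophages, rose by 3.43 ± 0.65 in transfer mice and by 3.31 ± 0.26 in TNF mice on vehicle. Markers of macrophages and neutrophils rose in the same comparisons, and their part in these values was not tested.

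Among 17 other AP-1 and related bZIP genes 7 rose in transfer mice on vehicle, and 3 of the 16 tested rose in TNF mice on vehicle. Batf, which pairs with Jun proteins in lymphocytes, averaged 5.37 CPM in inflamed transfer mice against 0.495 CPM in non-inflamed transfer mice (log2 fold change 3.43 ± 0.65, adjusted p = 0.00464). Cebpb, a C/EBP factor of acute inflammation, rose by 1.31 ± 0.26 in transfer mice and by 0.86 ± 0.15 in TNF mice, and Jdp2, a repressor that binds AP-1 sites, rose by 1.14 ± 0.29 and 0.88 ± 0.22.

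Of 22 other early transcription factors tested, 2 rose in transfer mice on vehicle, and 4 rose and 2 fell in TNF mice on vehicle. Nab2, which binds and represses Egr proteins, averaged 9.77 CPM in inflamed transfer mice against 4.86 CPM in non-inflamed transfer mice (1.23 ± 0.32, adjusted p = 0.0188). Its inflammation effect differed between the models, transfer minus TNF, by 1.89 ± 0.39 (adjusted p = 0.004), and model and intestinal region cannot be told apart there. Srf, the factor that binds the CArG box, fell by 0.44 ± 0.11 on the log2 scale in inflamed TNF mice on vehicle (37.0 CPM against 49.9 CPM in non-inflamed mice; adjusted p = 0.00706). Id2 rose by 1.55 ± 0.29 in transfer mice, and Bhlhe40, a stress-responsive repressor, by 1.02 ± 0.19 in TNF mice.

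Of 48 other early signalling and feedback genes, 14 rose in transfer mice on vehicle, and 11 rose and 2 fell in TNF mice on vehicle. Dusp2, a nuclear MAP kinase phosphatase of immune cells, averaged 6.91 CPM in inflamed transfer mice against 0.719 CPM in non-inflamed transfer mice (3.44 ± 0.63, adjusted p = 0.00435). Dusp4, another such phosphatase, averaged 14.5 CPM in inflamed TNF mice against 4.61 CPM in non-inflamed TNF mice (1.71 ± 0.23, adjusted p = 5.41e-05). Plaur, the urokinase receptor, rose in both models, and Tnfaip3, the NF-kappaB inhibitor A20, rose by 1.09 ± 0.15 in TNF mice.

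Among 28 upstream kinases and factors 5 rose and 1 fell in transfer mice, and 4 rose and 1 fell in TNF mice on vehicle. Elk3, a ternary complex factor that partners with SRF, rose by 0.98 ± 0.23 in transfer mice and by 1.19 ± 0.28 in TNF mice. Mapk11, the p38 beta kinase, rose by 2.06 ± 0.53 and 1.85 ± 0.39, and Map2k6, a p38 activator, fell by 1.33 ± 0.25 in transfer mice. Mapkapk3, the close relative of MK2, rose by 0.64 ± 0.16 in TNF mice. In the inhibitor comparisons no gene of these lists passed.

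The genes whose pattern was most like the members' were found by correlating the mean of the members' deviations from their group means, each scaled to its SD, with 13916 other genes in each model. The 8 with the highest lower r of the 2 models were Areg and Hbegf, which encode ligands of the EGF receptor, Nfkbia, which encodes the NF-kappaB inhibitor IκBα, Sfn, Lpcat4, Smox, Lgals3 and Plek2. Areg had r = 0.80 over 23 transfer libraries and 0.79 over 21 TNF libraries, and Plek2, the lowest of the 8, had 0.67 and 0.75. The members' mean deviation was lowest in inflamed vehicle replicate 5 of the TNF mice, at -1.39 SD, which is the single library of its group in batch 3.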

How the data were processed

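Poly-A RNA was sequenced from bulk intestine of 44 libraries. Per the submitters' processing notes, Salmon 0.14.1 and DESeq2 were used with mm10/GRCm38; the sources used here give no other step. The authors deposited, for each model, a table of estimated counts rounded to whole numbers and a table of normalized signal in which the estimates are scaled by gene and library. Of 29720 gene IDs 29395 were matched to a symbol.

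Counts were tested with edgeR 4.0.16 (R 4.3.3) by the quasi-likelihood test, after its filter on low counts and TMM scaling, with group and batch terms over all libraries of a model, and over both models for the difference between models; an adjusted p under 0.05 was called. Levels are CPM with TMM over all libraries. The fit was tested on simulated data. A few other edgeR settings were looked at for the number of genes called, and the fit was kept as planned. Alternatives were RLE factors, DESeq2 1.42.0, limma 3.58.1 with voom weights, limma on log2 of the deposited normalized signal plus 1, no filter on low counts, no term for batch, a replicate block, only the pair of groups compared, a looser threshold of 0.1 and leaving out each library; those without the libraries that stood apart or within 1 batch were chosen after seeing the data. Same-numbered libraries deviated together (r over 0.1 in every pair) in none of the 8 comparisons, so numbers were not used as pairs. The nearest was the inhibitor comparison in non-inflamed transfer mice, with 3 of 4 pairs over 0.1 and a median r of 0.32. Members and gene lists were chosen with earlier results of these data known. Named genes are all members, up to 3 genes with the smallest p past the threshold per related list and comparison, not all of which are printed, and the 8 genes most like the members. Depth limits low genes such as Egr2 and Egr3.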

Additional observations from a re-analysis of the deposited data

Results flagged for a closer look

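In 6 of 78 sets of libraries (a member in a group) 1 library lay apart from the rest by Dixon's test, which flags about 1 in 20 by chance. Egr1 was 30.5 CPM in inflamed inhibitor replicate 5 of the transfer mice, against 14.6 to 20.3 CPM in the other libraries of that group, and 28.2 CPM in inflamed vehicle replicate 1, against 11.0 to 15.7 CPM in the others; both libraries are of batch 3 and hold pancreatic acinar markers (7525 and 30725 CPM), whose part was not tested. Egr2 was 1.51 CPM in non-inflamed inhibitor replicate 5 of the transfer mice, against 0.0994 to 0.411 CPM in the others; it is the only batch 3 library of that group. Fosb was 1.47 CPM in non-inflamed inhibitor replicate 2 of the TNF mice, where the others were listed at 0. Egr3 was 0.492 CPM in inflamed inhibitor replicate 6 of the TNF mice, against 0 to 0.130 CPM in the others, and 0.105 CPM in non-inflamed vehicle replicate 3, where the others were listed at 0. With every other library at 0 any value above 0 is flagged, so the 1 in 20 rate does not hold for that Egr3 set or the Fosb set. The Egr3 value of 0.105 CPM was 1 count.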

How the results depend on the processing

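No called member changed sign under any alternative. In transfer mice on vehicle, where 2 members were called, 1 was called with limma on the normalized signal (Ier3), 1 without the small intestinal and pancreatic libraries (Ier3), and 0 without the pancreatic libraries, with the pair of groups alone and in batch 4 alone; leaving out 1 library gave 0 to 2. In transfer mice on inhibitor limma-voom called 5 against 3, and leaving out 1 library gave 1 to 3. In TNF mice on vehicle, where 3 were called, 1 was called with the pair of groups alone and in batch 2 alone (Egr2), 5 at an adjusted p under 0.1, and leaving out 1 library gave 2 to 5. In TNF mice on inhibitor, where 2 were called, limma on the normalized signal called 1 (Ier3), and leaving out 1 library gave 0 to 2. The cause of these changes was not tested, apart from fewer libraries or batches. With a replicate block 1 member was called in transfer mice on vehicle (Egr2, at a log2 fold change of 4.00) and 2 in TNF mice on vehicle. No member was called for the inhibitor, its interaction with inflammation or the difference between models under any alternative. The number of genes called on vehicle was 1882 in transfer mice, and between 0 and 5406 under the alternatives; it was 2157 in TNF mice, and between 1189 and 3029. For inflammation on inhibitor it was 3467 in transfer mice (1635 to 8205) and 1667 in TNF mice (310 to 4374), and for the difference between models 694 (290 to 1344). For uncalled members a change of sign was not counted as a reversal. Scaling by raw totals moved 1 group mean by over 1 SD, Ier2 in non-inflamed inhibitor TNF mice, to 51.9 CPM.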
